A study of Sus scrofa with 9 samples.

Results

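The genes described here encode nuclear subunits of oxidative phosphorylation, the mitochondrial machinery that makes ATP. They were taken from a list of 40 symbols by exact match to the gene names of the deposited table. Of these, 30 were found, among 30477 genes in all. They cover 14 genes of complex I, 3 of complex II, 5 of complex III, 4 of complex IV and 4 of complex V. A further 3 symbols (SDHA, NDUFA4 and COX7B) matched only through a gene identifier and are given apart, and 7 did not match, among them ATP5A1 and ATP5C1, the older names of ATP5F1A and ATP5F1C.

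The study profiled by RNA sequencing the outflow vein of the arteriovenous fistula (AVF, a surgical join of an artery to a vein for dialysis access) in pigs. All pigs of both groups carried a chronic kidney disease model, and 28 days after its induction the carotid artery was joined to the jugular vein. In the MSC group (n = 6) adipose-derived mesenchymal stem cells (MSCs) in Ringer lactate were laid on the outer wall of the vein at fistula creation, and control veins (n = 3) were untreated. Veins were harvested 28 days later. Strain, sex and age are not given in the labels. Each library has a different animal-like number in its name, but whether every library comes from its own animal is not stated. The p-values therefore measure only the spread between libraries, which may be technical. Unexplained tags stand in the names of control 2 (NT, F) and of MSC 1 (Allo, M).

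Oxidative phosphorylation passes electrons from NADH (complex I) and from succinate (complex II) through complex III and cytochrome c to oxygen at complex IV. The protons pumped on the way drive ATP synthase, complex V. Complex II is encoded by nuclear genes alone, whereas the other complexes also need subunits made from mitochondrial DNA. In the vein wall, smooth muscle, endothelial cells, fibroblasts and leukocytes all use this pathway, to differing extents. A lower share of 1 cell type and less RNA per cell cannot be told apart in whole-vein RNA.

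MSC 2 was the shallowest library (16939157 reads) and MSC 5 the deepest (47417606). The members together took between 0.0593% of the reads in MSC 5 and 0.188% in MSC 3. All 30 members passed the filter on low values. The lowest read number of any member was 32, for NDUFB3 in MSC 5, with an exact 95% Poisson interval of 21.9 to 45.2 that covers counting error only. The 37 mitochondrial genes of the table were all listed at 0, so the subunits made from mitochondrial DNA could not be compared. The share of small non-coding RNA was 53.3% in MSC 6 and 40.4% in control 2, against 6.75% to 16.4% elsewhere. Lane 7 held MSC libraries only (MSC 2, MSC 5 and MSC 6), while lanes 5 and 6 held both groups. The veins carried markers of smooth muscle (summed level of 159 to 5256), fibroblasts (5406 to 37940) and endothelium (26.5 to 115), in RPKM scaled as described next.

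Levels are the authors' RPKM (reads per kilobase of gene length and scaled to the assigned reads), divided by a factor per library from the trimmed mean of M-values (TMM). The factors ran from 0.408 in MSC 6 to 1.44 in control 1, so a scaled level in MSC 6 is its deposited value divided by 0.408.

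After scaling, the members were expressed at moderate and steady levels in the 3 controls. ATP5PO, a subunit of the peripheral stalk of ATP synthase, was highest among them, with a control mean of 74.5 ± 9.71 RPKM (SD, n = 3). NDUFA10, an accessory subunit of complex I, had the lowest control mean, 2.81 ± 0.982. The highest control value was at most 2.07 times the lowest for any member (NDUFA10), and the median of that ratio was 1.25. These ratios depend on the scaling. As deposited, SDHC was further apart in controls 1 to 3 (7.70, 2.75 and 4.63 RPKM) and NDUFA10 closer (2.64, 2.87 and 3.33). On the scaled values, coefficients of variation had a median of 11.3% in controls and 70.2% in MSC veins, and were larger in MSC veins for 30 of 30 members. The share over all genes was not computed, so this cannot be read as particular to the members. Over all genes tested, MSC 5 and MSC 6 had the lowest median correlations with the other libraries (0.708 and 0.860). Within the MSC group, the ratio of highest to lowest ran from 1.76 for NDUFA9 to 38.8 for NDUFB3, with a median of 6.87; a range over 6 libraries is expected to be wider than one over 3. The annotated length used for RPKM ran from 724 bases for UQCRQ to 14834 for ATP5F1A, and levels per length depend on it. Of the 30 members, 15 overlap another listed gene, for example NDUFA2 (TMCO6), SDHD (TIMM8B), ATP5PB (WDR77) and NDUFS1 (EEF1B2), so their reads may be shared.

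**Figure D1:**
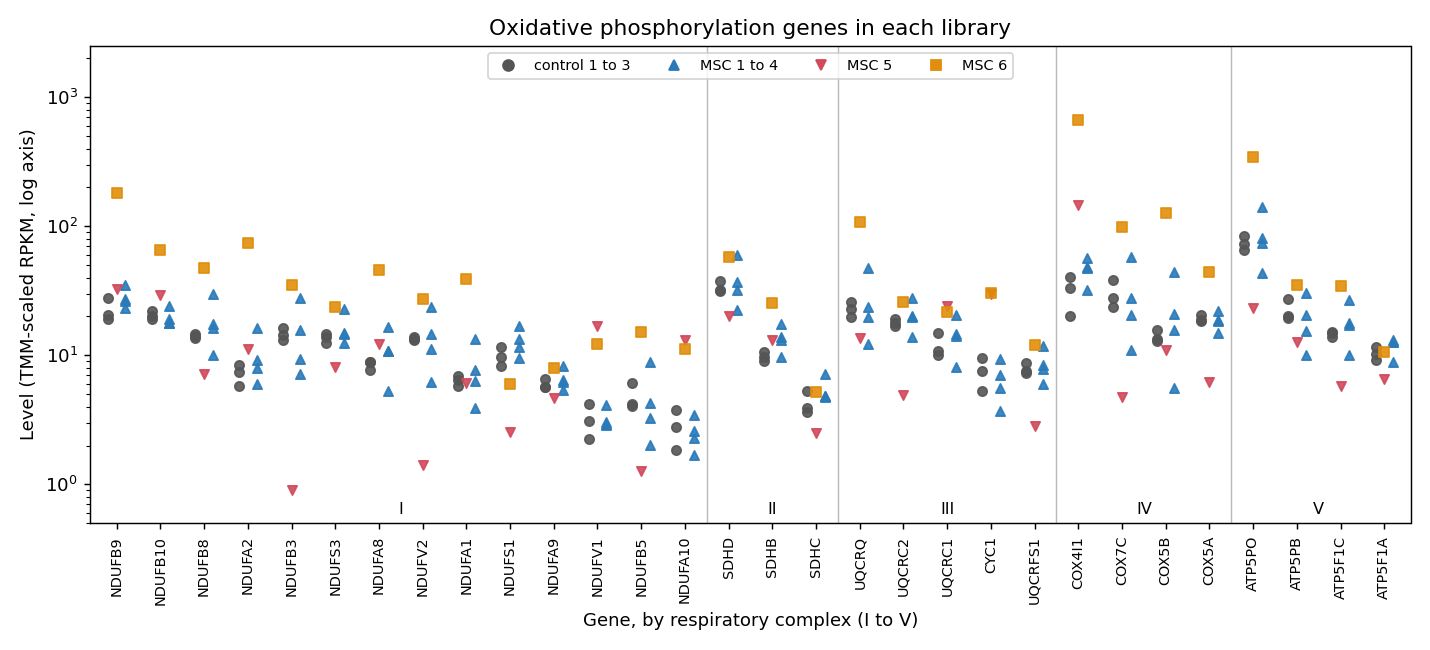
Level of each of the 30 genes (scaled RPKM, log axis) in every library, ordered by complex and by mean level. Controls cluster tightly, MSC 6 is the highest point for 21 genes and MSC 5 is the lowest for 16, while MSC 5 is the highest for 3.

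The first electron carriers come from complex I, which oxidises NADH. Its leading member was NDUFB9, an accessory subunit of the membrane arm (ENSSSCG00000005976, chromosome 4, 15075436 to 15113351). NDUFB9 stood at 19.3, 27.9 and 20.5 RPKM in controls 1 to 3 and at 26.4, 23.1, 34.8, 27.3, 32.9 and 182 in MSC 1 to MSC 6. Both groups overlapped, with MSC 6 far above every other library. The log2 fold change, 0.78 ± 0.59 (SE), had a limma adjusted p of 0.92, and without MSC 6 it was 0.35. NDUFB9 overlaps TATDN1 and MTSS1, so some reads may be shared.

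NDUFA2, another accessory subunit of complex I (ENSSSCG00000014371, chromosome 2, 142359007 to 142361131), had the largest fold change of that complex. It was at 5.76, 8.4 and 7.41 RPKM in controls and at 9.15, 5.95, 16.2, 7.94, 11.2 and 74.7 in MSC 1 to MSC 6. MSC 2 and MSC 4 lay inside the control range. The log2 fold change was 0.86 ± 0.65 (SE, limma adjusted p of 0.92), and 0.39 without MSC 6. The other 12 members of complex I had log2 fold changes from −0.39 (NDUFB3) to 0.67 (NDUFV1), and 10 of the 14 were positive.

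Complex II feeds electrons from succinate. SDHB, the iron-sulfur subunit (ENSSSCG00000020926, chromosome 6, 75648215 to 75678378), had the smallest unadjusted p of all 30 members, 0.0985. SDHB was at 9.66, 9.02 and 10.7 RPKM in controls and at 13.9, 9.66, 17.5, 13.2, 13.2 and 25.4 in MSC 1 to MSC 6. On these scaled values it exceeded all controls in 5 of the 6 MSC veins, and in MSC 2 it was within their range. That depends on the scaling. As deposited, SDHB was at 13.9, 6.81 and 12.7 RPKM in controls 1 to 3. In MSC 1 to MSC 6 it was then at 16.4, 13.3, 20.0, 16.6, 10.6 and 10.3, so MSC 5 and MSC 6 lay within the control range. The scaled group means were 9.79 ± 0.844 (SD, n = 3) and 15.5 ± 5.45 (SD, n = 6). The log2 fold change was 0.55 ± 0.30 (SE), and the limma adjusted p was 0.92. Leaving out 1 library at a time gave 0.41 to 0.66 for SDHB, and it kept a positive sign in all 19 alternatives tried.

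SDHD, a membrane anchor of complex II (ENSSSCG00000015034, chromosome 9, 39790561 to 39803946), was the most abundant of the complex. Its levels were 32.1, 37.6 and 31.8 RPKM in controls and 37.1, 22.6, 60.1, 32.0, 20.0 and 57.6 in MSC 1 to MSC 6. MSC 3 and MSC 6 were above the controls and MSC 2 and MSC 5 below, for a log2 fold change of 0.06 ± 0.40 (SE, limma adjusted p of 0.972). SDHC, the other anchor, was at 0.13. The catalytic flavoprotein SDHA, matched by identifier only, had means of 3.20 ± 0.544 RPKM (controls) and 4.67 ± 2.58 (MSC), with its highest level in MSC 5 (9.72).

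Complex III passes electrons to cytochrome c. UQCRQ, a small subunit (ENSSSCG00000014289, chromosome 2, 135186479 to 135188295), was at 19.8, 26.1 and 22.8 RPKM in controls and at 23.5, 12.1, 47.3, 19.9, 13.6 and 108 in MSC 1 to MSC 6. MSC 3 and MSC 6 exceeded the controls and MSC 2 and MSC 5 lay below them. Its log2 fold change was 0.26 ± 0.62 (SE, limma adjusted p of 0.929), turning to −0.13 without MSC 6.

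UQCRC1, a core protein of complex III (ENSSSCG00000011356, chromosome 13, 31298449 to 31309516), was at 10.1, 14.8 and 10.7 RPKM in controls and at 14.6, 8.18, 20.6, 14.2, 23.9 and 21.7 in MSC 1 to MSC 6. Its 3 highest values were in MSC 3, MSC 5 and MSC 6, and the log2 fold change was 0.44 ± 0.35 (SE, limma adjusted p of 0.92). CYC1, the haem-bearing cytochrome c1 (ENSSSCG00000031918, chromosome 4, 606516 to 608996), was at 5.34, 9.57 and 7.51 RPKM in controls and at 9.40, 3.67, 7.05, 5.54, 29.6 and 30.6 in MSC 1 to MSC 6. MSC 5 and MSC 6 alone exceeded the controls. The fold change of CYC1 went from 0.49 ± 0.62 (SE, limma adjusted p of 0.92) to −0.23 without both. UQCRFS1, the Rieske iron-sulfur protein, and UQCRC2, the other core protein, had log2 fold changes of −0.05 and −0.10.

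Complex IV reduces oxygen. COX4I1, its nuclear subunit 4 (ENSSSCG00000029034, chromosome 6, 3131019 to 3240221), had the largest fold change of all members. It was at 20.2, 40.4 and 33 RPKM in controls and at 48.7, 32.0, 57.0, 47.8, 147 and 671 in MSC 1 to MSC 6. In 5 of 6 MSC veins COX4I1 exceeded every control, and in MSC 2 it was within their range. Group means were 31.2 ± 10.2 (SD, n = 3) and 167 ± 250 (SD, n = 6), and the log2 fold change was 1.5 ± 0.84 (SE, limma adjusted p of 0.92). Without MSC 6 it was 0.92, and without MSC 5 and MSC 6 0.59. As deposited, before further scaling, COX4I1 was at 29.1 to 39.3 RPKM in controls, 44.2 to 118 in MSC 1 to MSC 5 and 274 in MSC 6. Its listed span covers IRF8, GINS2 and 2 other listed genes, so reads may be shared. COX5B was at 0.65 (0.16 without MSC 6), COX7C at −0.26 and COX5A at −0.10, all subunits of the same complex. Of the genes matched by identifier, NDUFA4 had means of 54.0 ± 3.87 RPKM (controls) and 101 ± 111 (MSC), and COX7B 24.1 ± 0.892 and 51.1 ± 60.0.

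Complex V makes ATP. ATP5PO (ENSSSCG00000012042, chromosome 13, 197509325 to 197519589) was at 65.4, 84.7 and 73.2 RPKM in controls and at 80.6, 43.6, 141, 74.4, 23.3 and 346 in MSC 1 to MSC 6. MSC 3 and MSC 6 were above the controls, MSC 2 and MSC 5 below, and the log2 fold change of 0.15 ± 0.71 (SE, limma adjusted p of 0.96) turned to −0.27 without MSC 6. ATP5PB, another peripheral stalk subunit (ENSSSCG00000037772, chromosome 4, 108896056 to 108907805), was at 19.6, 27.1 and 20.1 RPKM in controls and at 20.7, 10.1, 30.4, 15.3, 12.6 and 35.4 in MSC 1 to MSC 6. It had the largest change of complex V, −0.21 ± 0.41 (SE, limma adjusted p of 0.92). ATP5F1A and ATP5F1C, the alpha and gamma subunits of the F1 head and central stalk, were at 0.03 and 0.13.

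Across the pathway, no member was called different between MSC veins and controls. The limma test over 17884 genes called 0 of 30 members, with adjusted p from 0.92 to 0.982, against 0% called among all genes. At an unadjusted p under 0.05 there were 0 members, against 1.91% of all genes higher and 2.11% lower, and limma-voom on read numbers recovered from the RPKM also called 0, with 0 members at an unadjusted p under 0.05. On the scaled values, in 0 members did all MSC libraries lie on 1 side of all controls, against 2.0% of genes above and 1.95% below. That count depends on the scaling. As deposited, COX4I1 was at 44.2 to 274 RPKM in the MSC libraries, above all controls (29.1 to 39.3). The share of all genes was not computed on deposited values. A positive log2 fold change was found in 21 members and a negative one in 9, where 55.7% of all genes were positive. The median was 0.14 for the members and 0.04 for all genes tested. Standard errors ran from 0.25 to 0.84, with a median of 0.51 on the log2 scale, so changes of moderate size could not be detected with these libraries. With RPKM as deposited, 14 members were positive and 16 negative, and 46.0% of all genes positive, and 1 member, COX4I1, had an unadjusted p under 0.05, with a log2 fold change of 1.32 and a limma adjusted p of 0.999, where 1.08% of all genes were higher at that threshold. Without MSC 5 and MSC 6, 21 members were positive (against 52.5% of genes). There, 0 members had an unadjusted p under 0.05, against 4.23% of genes higher and 4.18% lower. On the scaled values 0 members had groups that did not overlap there, against 4.84% of genes above and 4.26% below.

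**Figure D2:**
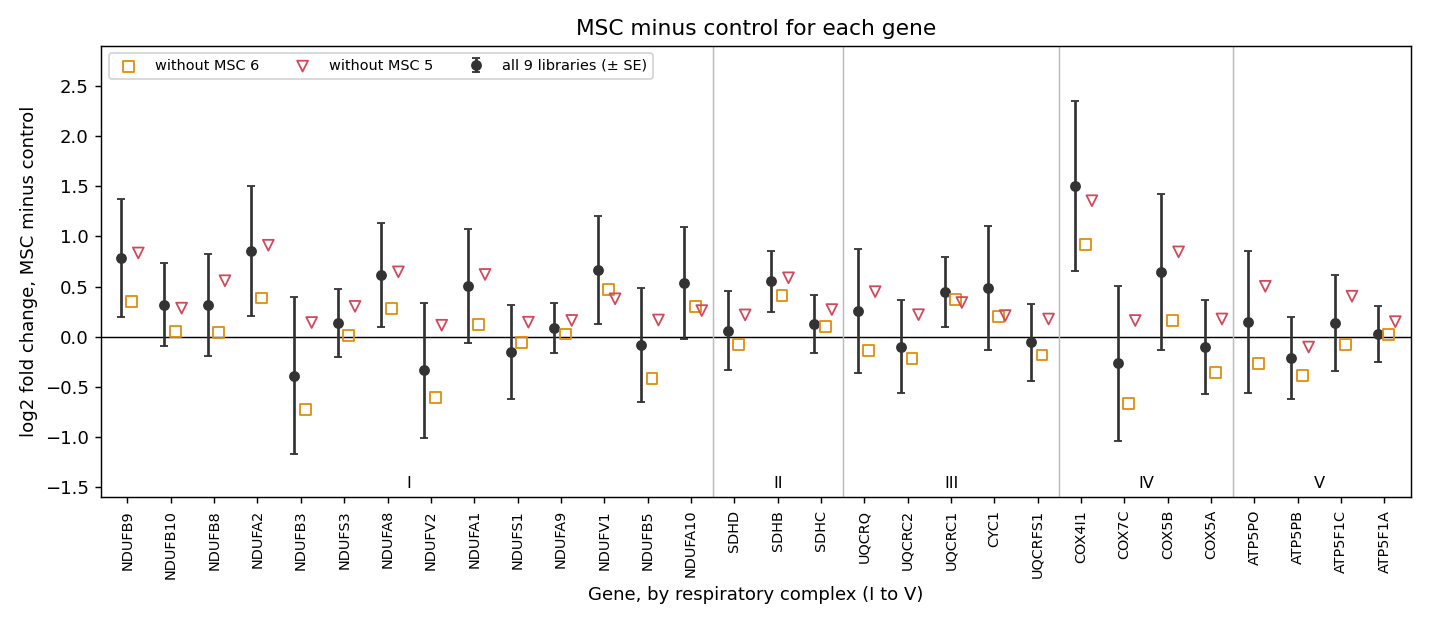
Log2 fold change of each gene, MSC minus control, with all 9 libraries (filled points, bars ± SE) and without MSC 6 or MSC 5 (open symbols). COX4I1 is highest at 1.5 and NDUFB3 lowest at −0.39, and 29 genes are positive without MSC 5 against 17 without MSC 6.

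Averaged over its members, each complex spread more widely among MSC libraries than among controls. The mean log2(scaled RPKM + 1) of complex I was 3.31 ± 0.11 for controls (SD, n = 3), against 3.59 ± 0.73 for the MSC group (SD, n = 6). For complex II it was 3.65 ± 0.06 and 3.89 ± 0.44, and for complex III 3.73 ± 0.14 and 3.94 ± 0.62. Complex IV was at 4.53 ± 0.21 and 4.98 ± 1.20, the widest spread, and complex V at 4.56 ± 0.15 and 4.58 ± 0.76. The differences, from 0.02 for complex V to 0.45 for complex IV, were each smaller than the SD of the MSC group. They depended on the libraries kept, and lanes 5 and 6 alone leave out MSC 2, MSC 5 and MSC 6. In lanes 5 and 6 alone they were 0.27 for complex I, 0.39 for II, 0.25 for III, 0.42 for IV and 0.26 for V. Without MSC 6 only, MSC 2 and MSC 5 being kept, they were 0.02, 0.15, 0.0063, 0.013 and −0.18 in the same order. Complex V was also negative in other alternatives, among them RPKM as deposited (−0.15), no filter on low values (−0.12) and TMM on protein-coding genes (−0.013). MSC 6 was highest in all 5 complexes on this scale. MSC 2 was lowest in complexes I, III and IV, and MSC 5 in II and V.

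**Figure D3:**
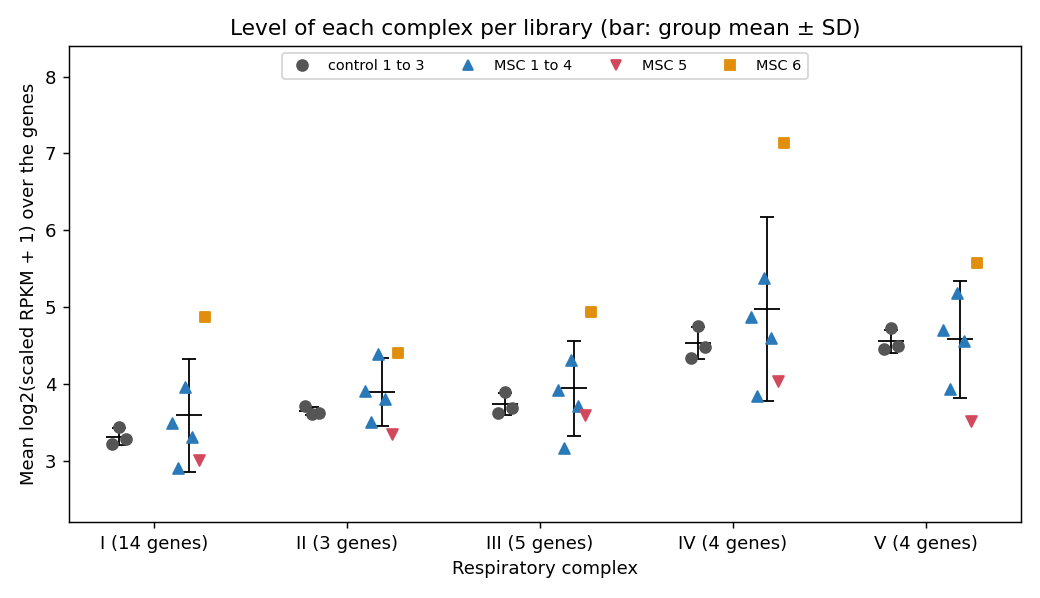
Mean log2(scaled RPKM + 1) over the genes of each complex in every library, with the group mean ± SD as bars. The 3 controls lie close together, and the MSC libraries reach from below them (MSC 2, MSC 5) to above (MSC 3, MSC 6), most widely in complex IV (3.84 to 7.14).

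The lane 7 libraries moved in 3 different ways. MSC 2, the shallowest library, lay below the median of the other 8 libraries in 30 of 30 members, by a median log2 ratio of −0.58, against −0.18 over the 6400 genes tested whose mean level fell in the range of the members. The count depends on the scaling, since with RPKM as deposited MSC 2 lay below that median in 22 members. As deposited it was the lowest library in 3 members, against 9 after scaling and 15 with no filter on low values. It also had reads on 94.5% of all genes, against 71.7% to 84.2% in the other libraries, and the part of this in the lower member levels was not tested.

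MSC 5 had members both far below and far above the other libraries, as it had for genes at large. Over all genes tested its median correlation with the other libraries was 0.708, against 0.860 to 0.955 for the rest. The SD of its log2 ratios to the other libraries was 1.32 over the members and 1.59 over the 6400 genes in their level range. It held the lowest level of the 9 libraries in 16 members (53.3%, against 43.7% of the 6400 genes in their level range) and the highest in 3 (10%, against 28.8%). The order of the members by level in MSC 5 had a Spearman rho of 0.32 with the control median across the 30 genes, which are not independent replicates, against 0.92 to 0.98 in controls and MSC 1 to MSC 4 and 0.72 in MSC 6. The genes named next were chosen after their values were seen. NDUFB3, an accessory subunit of complex I (ENSSSCG00000016100, chromosome 15, 104747678 to 104759139), was at 0.905 RPKM in MSC 5, or 6.0% of the median of the others, whose range was 7.19 to 35.1. NDUFV2, a subunit of the NADH-oxidising module, was at 1.42 there against a range of 6.16 to 27.1.

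Its partner NDUFV1, which binds the flavin that takes electrons from NADH, went the other way. NDUFV1 was at 16.9 RPKM in MSC 5, 5.47 times the median of the other libraries, whose range was 2.26 to 12.3. NDUFA10 was 4.91 times and CYC1 4.07 times their medians. COX4I1 was 3.34 times and COX7C, of the same complex, 17.2% of the median. Subunits of 1 complex thus lay on both sides of the median in this library, whose scatter over the members was no wider than over genes of their level range. MSC 5 was also the highest in summed smooth muscle markers (5256 RPKM, controls 381 to 490, with 5 of 6 markers highest in it). Its fibroblast marker sum was the highest too (37940, controls 5406 to 12748), but the markers were split. COL1A1 (23119) and COL1A2 (14582) made up nearly all of it. DCN (178), LUM (29.2) and PDGFRA (31.6) were at their lowest of the 9 libraries in MSC 5. The part of these markers in the member levels was not tested. With RPKM as deposited MSC 5 was likewise highest in 3 members, with CYC1 in place of UQCRC1, and lowest in 16.

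MSC 6 was high in nearly all members after scaling. It stood above the median of the 7 libraries other than MSC 5 and MSC 6 in 28 of 30 members, by a median factor of 2.84 and up to 16.6 for COX4I1, with NDUFS1 and ATP5F1A as the exceptions. It held the highest value of 21 members (70.0%, against 17.4% of genes in their level range). That count depends on the scaling. With RPKM as deposited MSC 6 was highest in 5 members and MSC 3 in 19, and MSC 6 was above the median of the 7 in 14 members, by a median factor of 0.949. Without a filter on low values it was highest in 16. With TMM on protein-coding genes or median-of-ratios factors MSC 6 was highest in 19 and 20.

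Among the members, shorter genes stood higher in MSC 6. The Spearman rho between gene length and the log2 ratio of MSC 6 to the other libraries was −0.66 over the 30 members and −0.39 over the 6400 genes of their level range, in the same library and on the same scaling. In the other 8 libraries the rho over members ran from −0.25 in MSC 5 to 0.46 in control 1. MSC 6 also held the highest share of small non-coding RNA, as above, and summed smooth muscle markers of 4742 RPKM. It was the highest library in summed erythroid markers (539 RPKM, controls 4.78 to 38.4) and in the B cell marker sum (227, controls 28.1 to 45.3). That B cell sum was nearly all CD79A (227), while MS4A1 (0.0703), CD79B (0.236) and BLK (0.135) lay below every control in MSC 6. ACTA1, the skeletal muscle actin, whose sequence is close to that of other actins, was at 180 RPKM in MSC 6. CKM and TNNT3, other skeletal muscle markers, were at 0.280 and 0.0361 there. Cardiac muscle markers summed to at most 0.533 RPKM in every library. Their part in the member levels was not tested.

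**Figure D4:**
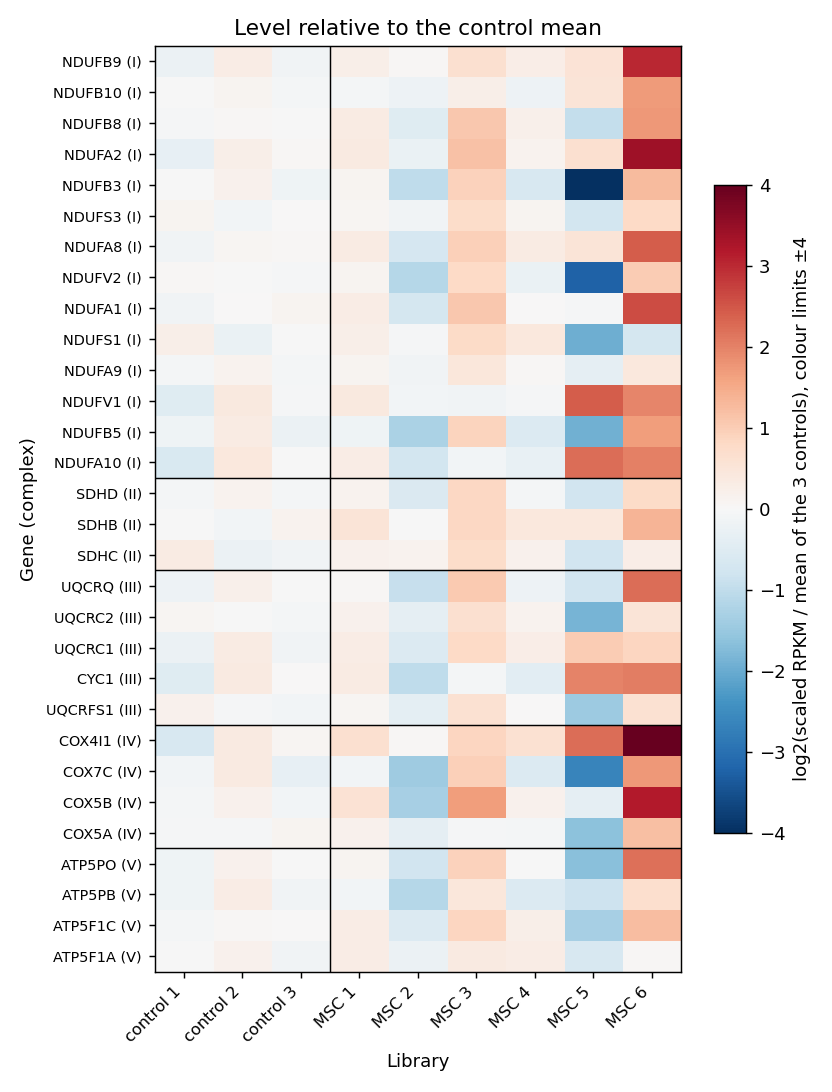
Level of each gene in each library as log2 of scaled RPKM over the mean of the 3 controls, ordered by complex, with colours capped at ±4. MSC 3 and MSC 6 are mostly above the controls, MSC 2 below, and MSC 5 is below for genes such as NDUFB3, NDUFV2 and COX7C but above for NDUFV1, NDUFA10, CYC1 and COX4I1.

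Without lane 7, the levels were more even and mostly higher in MSC veins. In lanes 5 and 6 alone (3 controls, and MSC 1, MSC 3 and MSC 4), 27 of 30 members had a positive log2 fold change, with a median of 0.30, against 48.8% of 17177 genes. On levels scaled with the factors of all 9 libraries, 8 members (26.7%) had all 3 MSC libraries above all controls, against 9.58% of genes. They were SDHB, COX4I1, NDUFA8, NDUFS1, ATP5F1C, NDUFB8, ATP5F1A and UQCRC2. The fold changes came from a fit with factors of these lanes alone. Which members qualify depends on the scaling. As deposited, MSC 1 lay below control 1 for NDUFS1 (13.8 and 16.7 RPKM) and UQCRC2 (23.9 and 27.5). UQCRC1, NDUFB9, NDUFA2 and COX5B then had all 3 MSC libraries above all controls. On the scaled levels, SDHB averaged 14.9 ± 2.32 RPKM in these 3 MSC veins and 9.79 ± 0.844 in controls (SD, n = 3 each). Its log2 fold change was 0.55 ± 0.16 (SE). ATP5F1A averaged 12.9 ± 0.277 and 10.3 ± 1.14, with 0.30 ± 0.14 (SE).

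None of these passed the test. In lanes 5 and 6 alone 0 members were called by limma, with a lowest adjusted p of 0.237 (SDHB), against 0.0408% of genes called, and 4 (SDHB, COX4I1, NDUFA8 and NDUFS1) had an unadjusted p under 0.05, all higher (13.3%, against 5.59% of genes), while 0 were lower (6.51% of genes). On the same scaled levels, in 0 members did all 3 MSC libraries lie below all controls, against 9.53% of genes. MSC 3 held the highest value of these 6 libraries in 26 members. It was also the highest of all 9 libraries in summed macrophage markers (395 RPKM, controls 118 to 191) and T cell markers (29.0, controls 12.0 to 15.1) and the lowest in smooth muscle markers (159, controls 381 to 490). Erythroid markers summed to 118, 428 and 71.1 RPKM in MSC 1, MSC 3 and MSC 4, all above the controls (4.78 to 38.4), and over all 9 libraries each of the 3 erythroid genes was higher at an unadjusted p under 0.05 (limma adjusted p of 0.92). Their part in the member levels was not tested.

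Other genes of the pathway, from lists drawn up by function, showed the same spread. Of 45 further subunits, 36 were measured. On the scaled values 34 had a positive fold change (55.7% among all genes), with a median of 0.45 (0.04 for all genes). These signs were not counted as deposited or without MSC 6. For the members, 21 were positive after scaling, 14 as deposited and 17 without MSC 6. Limma called 0 of them, and 0 had an unadjusted p under 0.05. COX8A, a small subunit of complex IV, had means of 10.5 ± 3.67 RPKM (controls) and 62.2 ± 87.3 (MSC) (log2 fold change of 1.56), and ATP5F1D, the delta subunit of ATP synthase, 15.2 ± 2.55 and 43.3 ± 39.4 (1.05). On the scaled values MSC 6 held the highest level in 32 of the 36. COX4I2, the alternative form of COX4I1 in complex IV, was at 11.4 to 16.1 RPKM in controls, 147 in MSC 5, 47.0 in MSC 6 and 3.91 to 14.2 in the other MSC veins. NDUFA4L2, a relative of NDUFA4, was at 5.15 RPKM in MSC 5 and at most 0.888 in any other library. COX4I2 and NDUFA4L2 were picked for their values.

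Assembly factors, which build the complexes, had 34 measured of 44 listed, 21 positive (55.7% among all genes), with a median of 0.17 and 0 called. COX11, a copper chaperone of complex IV, was at 2.77 ± 0.461 RPKM for controls (SD, n = 3), against 1.49 ± 0.569 for the MSC group (SD, n = 6), and each MSC library lay below every control. The log2 fold change of −0.62 ± 0.26 (SE) had an unadjusted p of 0.0376 and a limma adjusted p of 0.92. ACAD9, an assembly factor of complex I, was at 1.24 ± 0.0532 and 1.93 ± 0.676 RPKM, above all controls in all 6 MSC libraries (limma adjusted p of 0.92). These were 1 gene each of 34 (COX11 lower, ACAD9 higher), where 1.95% of all genes lay below and 2.0% above all controls and 2.11% were lower at an unadjusted p under 0.05, so the counts are near the background.

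Of 17 regulators of mitochondrial biogenesis, 7 had a positive fold change (55.7% among all genes), with a median of −0.12. Limma called 0, and 0 had an unadjusted p under 0.05. GABPA and TFAM, which drive transcription of nuclear respiratory genes and of mitochondrial DNA, had log2 fold changes of −0.66 and −0.58. Both were lowest in MSC 5, where GABPA was at 1.43 and TFAM at 1.72 RPKM, against control means of 9.31 ± 0.896 and 9.05 ± 1.20 (SD, n = 3). Citric acid cycle genes had 8 of 13 positive with a median of 0.08, led by IDH3G (0.47) and DLD (−0.38). Genes of mitochondrial import and shape had 10 of 15 positive with a median of 0.12, led by SLC25A4 (0.62) and VDAC1 (0.32). In both lists limma called 0.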

How the data were processed

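RNA was sequenced from 9 vein libraries (3 control, 6 MSC), prepared with a TruSeq kit (input 0.5 µg total RNA), per the labels' protocols. The authors deposited RPKM for 30477 pig genes, the unit being named in the file headers. The sources used here name no role for susScr11 and mm10, both listed in the submitters' processing notes; the aligner is not given in the sources used here. Coordinates are those of the deposited table. Multiplied by the listed length plus 1, the values of a library shared 1 step (each within 0.01 of a whole number), so reads could be recovered; 1 read in a gene of 2 kilobases equals 0.0105 to 0.0295 RPKM.

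The filter asked for 15 reads over all libraries and, in 3 or more of them, for the equivalent of 10 reads at median depth; 17884 genes passed. TMM factors (trims 0.3 and 0.05) came from the recovered reads of kept genes. limma 3.58.1 (R 4.3.3) was fitted with a trended prior to log2(scaled RPKM + 1) over all 9 libraries with no covariate. For low genes this scale understates fold changes. The Benjamini-Hochberg adjustment ran over all genes (threshold 0.05). The fit was tested on simulated reads. Of 14012 genes without a symbol in the table, 785 took one from a gene name table. This was used for the other pathway and marker lists only.

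Named by rule were the members of each complex with the highest level, smallest p and largest change, members whose groups did not overlap, and up to 2 genes per other pathway list by smallest p. Members and lists were chosen with earlier results of these data known. Of the members, 15 overlap another listed gene. Alternatives were another pseudocount, no filter, other scalings, limma-voom on the recovered reads, lane as a covariate, a replicate block, lanes 5 and 6 alone and leaving out libraries. NDUFB3, NDUFV1, NDUFV2 and other members outside the rule were named after their values were seen.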

Additional observations from a re-analysis of the deposited data

Results flagged for a closer look

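Among 36 values tested in the 6 MSC libraries (30 members, 5 complexes and their mean over all members), 1 had an outlying library, against 1.8 such values by chance. NDUFB9 in MSC 6 stood at 7.52 on the log2(scaled RPKM + 1) scale, with the next library at 5.16. The 3 controls were too few to test.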

How the results depend on the processing

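The absence of calls among the 30 members held in all 19 alternatives. The log2 fold changes of 11 members (10 positive, and ATP5PB negative) kept their sign in all of them, and the other 19 changed sign in at least 1; none had been called, and the cause was not tested. Over all genes, limma called 5 higher and 2 lower in lanes 5 and 6 alone, and leaving out 1 library at a time gave 0 to 1 higher and 0 to 21 lower (21 without control 1), no member among them. Differences between group means of a complex moved by less than the pooled SD in all alternatives. That SD (0.37 for complex II to 1.02 for complex IV) was larger than the difference of each complex (0.02 to 0.45). A difference could therefore vanish within it, so this does not show stability. Without MSC 6 only, those of complexes I, III and IV fell to 0.018, 0.0063 and 0.013. In lanes 5 and 6 alone, which also lack MSC 6, they were 0.27, 0.25 and 0.42. Complex V turned negative in several alternatives, among them without MSC 6 (−0.18), as deposited (−0.15), with no filter (−0.12) and with TMM on protein-coding genes (−0.013). Leaving out control 1 (−0.025), control 3 (−0.047) or MSC 1 (−0.00031) also turned it negative.

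Changed signs, as log2 fold changes, were these. With RPKM as deposited: NDUFA9 −0.068, NDUFS3 −0.039, SDHC −0.017, SDHD −0.12, ATP5F1A −0.13, ATP5F1C −0.042 and ATP5PO −0.039. With no low-value filter, which also changed the TMM factors: NDUFA9 −0.041, NDUFS3 −0.0011, SDHD −0.085, ATP5F1A −0.11 and ATP5F1C −0.0031. With TMM on protein-coding genes: ATP5F1A −0.0069. With lane as a covariate: NDUFB3 0.17, NDUFB5 0.075, NDUFB10 −0.012, NDUFS1 0.40, NDUFV2 0.19, UQCRC2 0.30, UQCRFS1 0.21, COX5A 0.037 and COX7C 0.16. In lanes 5 and 6 alone: NDUFB3 0.14, NDUFB5 0.082, NDUFB10 −0.017, NDUFS1 0.46, NDUFV2 0.21, UQCRC2 0.31, UQCRFS1 0.22, CYC1 −0.021, COX5A 0.021 and COX7C 0.13. Without MSC 5 and MSC 6, an alternative chosen after seeing the data: NDUFA10 −0.11, NDUFB10 −0.058, NDUFS1 0.34, UQCRC2 0.15, UQCRFS1 0.078 and CYC1 −0.23. Pseudocount 0.1, limma-voom and median-of-ratios factors changed no sign. Leaving out 1 library at a time gave ATP5F1A −0.077 to 0.15, ATP5F1C −0.074 to 0.40, ATP5PO −0.27 to 0.50, COX5A −0.36 to 0.18, COX7C −0.67 to 0.16, NDUFB3 −0.73 to 0.14, NDUFB5 −0.41 to 0.17, NDUFS1 −0.32 to 0.15, NDUFV2 −0.61 to 0.11, SDHD −0.092 to 0.22, UQCRC2 −0.24 to 0.22, UQCRFS1 −0.18 to 0.18 and UQCRQ −0.13 to 0.48.

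With the replicate block, the signs that changed were NDUFA10 −0.085, NDUFB3 0.023, NDUFB10 −0.016, NDUFS1 0.31, UQCRC2 0.15, UQCRFS1 0.10 and CYC1 −0.18, and no member was called. Whether the numbers pair the libraries cannot be told from 3 such pairs. The deviations of same-numbered libraries correlated at 0.22, −0.52 and −0.14. Among these, 0 of 3 controls and 1 of 3 MSC libraries correlated best with their own number. The lowest member value rests on 32 reads, and the part of depth in the comparison was not tested. The comparison rests on 6 MSC libraries, which spread widely, and on 3 controls.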
